A study of Mus musculus with 9 samples.

Results

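The 10 genes described here are Sall1, Sall3, Sall4, Osr1, Jag1, Cntfr, Prdm1, Bcl11b, Zfpm1 and Rprm, a set linked to the response to Sonic hedgehog (SHH) in limb mesenchyme. They were taken by name, out of 21938 protein-coding genes, and each was described by the H3K27ac peaks that lay within its annotated span or the 50 kb on either side. H3K27ac, acetylation of histone H3 at lysine 27, marks active promoters and enhancers. MicroChIP-seq, which immunoprecipitates chromatin from small cell numbers, mapped the mark in mouse forelimb buds at E10.5 (33 to 34 somites). The embryos were wild type (WT littermates), Shh-/- (homozygous for the germline null allele tm1amc of Shh) or Shh-/-;Gli3-/- (homozygous in addition for Gli3 Xt-J, a germline null of Gli3). The labels give a mixed strain background, and the methods state that both null alleles were kept on Swiss Webster. The forelimb pair of a single embryo went into each immunoprecipitation, and the 9 libraries, amplified over 12 PCR cycles, are 2 H3K27ac replicates and 1 input per genotype. Genotypes were read from the sample titles, since the genotype label reads wild type throughout.

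The data are 3 peak lists, 1 per genotype, with no value for a replicate. No difference below could therefore be set against the spread between embryos, and no test was made. The study reports weaker signal from MicroChIP than from its standard protocol, so a region without a peak here may still be acetylated. Its standard ChIP-seq of H3K27ac in WT and Shh-/- was not used here. The measure used was the covered length, the summed length of peaks inside a gene's window. A gene was counted as reduced when WT coverage was at least 1.5 times Shh-/- coverage, as back when Shh-/-;Gli3-/- coverage then reached the WT value, and as larger at 1.5 times WT or more. The lists differ in size (10.4 Mb covered in WT, 12.9 Mb in Shh-/- and 17.1 Mb in Shh-/-;Gli3-/-), so each count is set beside the share of all protein-coding genes with the same call. Limb buds are mixed tissue, and fewer acetylated cells cannot be told apart from less acetylation per cell. The defining forelimb gene Tbx5 was covered over 15.75, 20.95 and 23.6 kb in WT, Shh-/- and Shh-/-;Gli3-/-, all 7 forelimb mesenchyme markers had peaks in every list, and of the 2 hindlimb markers Pitx1 had none in any list while Tbx4 was covered over 2.4, 4 and 5.5 kb.

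SHH is secreted by posterior mesenchyme of the limb bud. Without the ligand, GLI3 is processed into a transcriptional repressor, and with it the GLI proteins act as activators, so that GLI repressor prevails in Shh-/- buds, and its main source is removed when Gli3 is lost as well. The question posed to the 10 genes was whether acetylation present in WT was smaller in Shh-/- and returned in the double mutant. Sall1, Sall3 and Sall4 encode spalt-like zinc finger transcription factors of embryonic development. Osr1, Prdm1 (BLIMP1) and Bcl11b (CTIP2) encode zinc finger transcription factors, and Zfpm1 (FOG1) encodes a cofactor of GATA factors. Jag1 encodes a ligand of Notch receptors, Cntfr the ligand-binding receptor of ciliary neurotrophic factor, and Rprm (Reprimo) a p53-induced regulator of the cell cycle.

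None of the 10 genes was reduced in Shh-/- and back in Shh-/-;Gli3-/-. The other 8 could be assessed, since 2 genes, Osr1 and Rprm, had no WT peak. Of these 8 genes, 0 were reduced in Shh-/-, against 9.11% of the 15930 genes with a WT peak, and 0 were reduced and back, against 4.19%. In contrast, 6 of the 8 (Sall1, Sall3, Cntfr, Prdm1, Bcl11b and Zfpm1) had larger coverage in Shh-/-;Gli3-/- than in WT, a call that 34.1% of all genes also received, and 0 were smaller there, against 6.74%. In Shh-/-, 2 of the 8 (Bcl11b and Zfpm1) were larger than in WT, against 25.7% of all genes. The 10 windows together were covered over 13.05 kb in WT, 18.5 in Shh-/- and 30.4 in Shh-/-;Gli3-/-. The median ratio to WT of the 8 genes was 1.22 in Shh-/- and 1.95 in Shh-/-;Gli3-/-, beside 1.18 and 1.30 over all genes. Where WT coverage was at least 1 kb, which left 6 of the named genes, 0 were reduced (background 3.19%), 0 were reduced and back (1.94%) and 5 were larger in the double mutant (26.0%). A promoter peak of their own was present for 6 of the 10 in WT, 8 in Shh-/- and 8 in Shh-/-;Gli3-/-, while 44.3%, 48.3% and 46.3% of all genes had one.

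When coverage was divided by the total of its own list, the calls of larger coverage in Shh-/-;Gli3-/- fell to 2 of 8, Sall3 and Prdm1, against 8.88% of all genes. On that scale Zfpm1 alone remained larger in Shh-/- (background 12.4%), Jag1 became reduced in Shh-/- (15.8%) without being back (0 of 8, against 2.63%), and Sall4 became smaller in Shh-/-;Gli3-/- (28.8%). The double mutant coverage of Sall1, Cntfr, Bcl11b and Zfpm1 was thus larger than in WT by no more than 1.46 times once the larger list was allowed for.

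**Figure D1:**
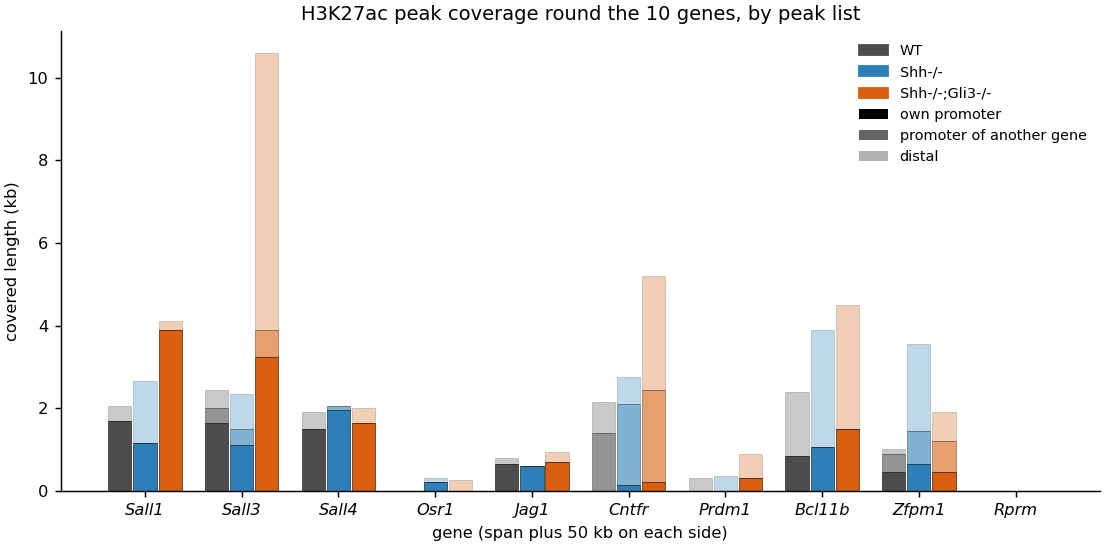
Covered length (kb) of H3K27ac peaks within the span of each gene plus 50 kb on each side, with 1 bar per peak list (grey WT, blue Shh-/-, orange Shh-/-;Gli3-/-). Dark, medium and light parts are peaks on the gene's own promoter, on promoters of other genes and away from promoters. Sall3 in Shh-/-;Gli3-/- is the tallest bar at 10.6 kb, and Rprm has no bar.

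**Figure D2:**
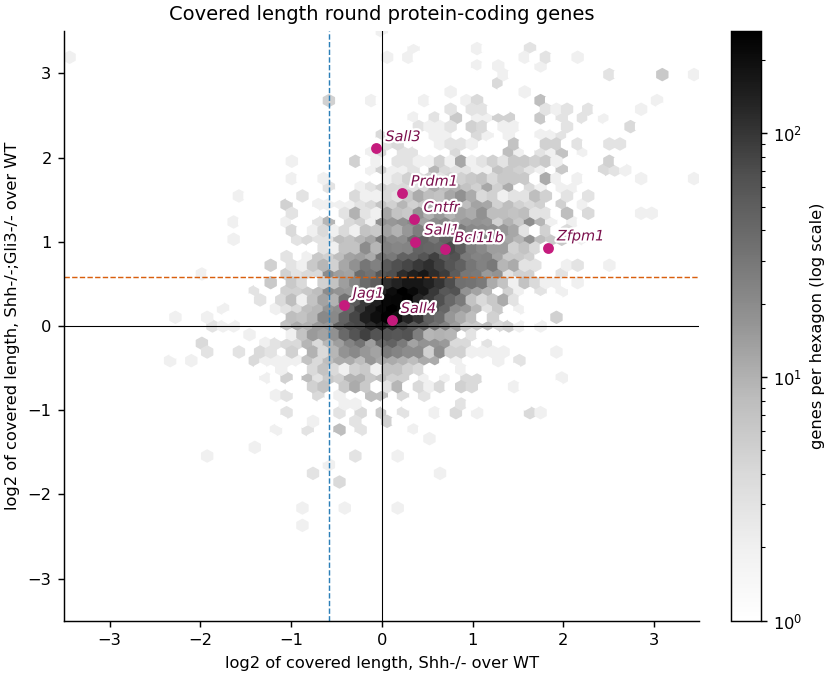
Log2 ratio of covered length in Shh-/- over WT (x axis) and in Shh-/-;Gli3-/- over WT (y axis) for the 15018 protein-coding genes with coverage in all 3 lists, as hexagons shaded by number of genes on a log scale. Points mark the 8 named genes with a WT peak, and dashed lines the 1.5-fold limits for reduced (blue) and larger (orange). No named gene lies left of the blue line, and 6 lie above the orange line.

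Sall3 showed the greatest double mutant coverage of the 10 genes. It lies on the minus strand of chromosome 18 (chr18:80966376-80986771, mm10). Its window was covered over 2.45 kb in WT by 6 peaks, 2.35 in Shh-/- by 7 peaks and 10.6 in Shh-/-;Gli3-/- by 18 peaks. WT and Shh-/- were thus close, and the double mutant stood at 4.33 times WT, at percentile 97.2 of that ratio over all genes with a WT peak (2.61 times when scaled to list totals). Most of the added length lay in the gene itself, where peaks covered 1.5 kb in WT, 1.25 in Shh-/- and 7.37 in the double mutant.

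At the Sall3 promoter (from 2 kb before to 1 kb after the start of a coding transcript), 3 peaks in each list summed to 1650 bp in WT, 1100 bp in Shh-/- and 3250 bp in Shh-/-;Gli3-/-. Among genes with a promoter peak in the same list, these widths stood at percentiles 89.1, 68.9 and 97.5. Sall3 was the only gene of the 6 with a WT promoter peak whose promoter width was reduced and back, against 5.30% of 9675 genes, and its WT width was 1.5 times that in Shh-/-, at the limit. The call rested on how promoter width was counted. With peaks of FDR below 0.05 alone, or with only the bp inside the promoter window (1429, 1100 and 2729 bp), 0 of the 6 genes showed it, the latter against 4.94% of all genes.

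Away from promoters, Sall3 had 2 peaks in WT (0.45 kb), 3 in Shh-/- (0.85 kb) and 14 in Shh-/-;Gli3-/- (6.7 kb). An intronic WT peak of 350 bp, 10.7 kb into the gene, overlapped peaks of both other lists, 250 bp wide in Shh-/- and 1800 bp wide in the double mutant. A second intronic WT peak of 100 bp, 6.27 kb into the gene, had no counterpart in Shh-/- and overlapped a 650 bp double mutant peak. The WT peak was weak (log2 fold over input 2.26, score percentile 14.9 of its list, FDR 0.211), and the double mutant peak stood at percentile 84.0 of its own list. Of the 14 double mutant distal peaks, 11 overlapped no peak of either other list, as did 64.5% of all distal peaks of that list. Of those 11, 9 had an FDR below 0.05. The 11 included a run of 4 intronic peaks that spanned 3.10 kb (chr18:80977000-80980099), and a pair about 5 to 6 kb upstream of the gene (chr18:80991550-80992649). The neighbouring Atp9b promoter within the window contributed 0.35, 0.40 and 0.65 kb, so that without promoters of other genes the log2 ratio of double mutant over WT moved only from 2.11 to 2.24.

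**Figure D3:**
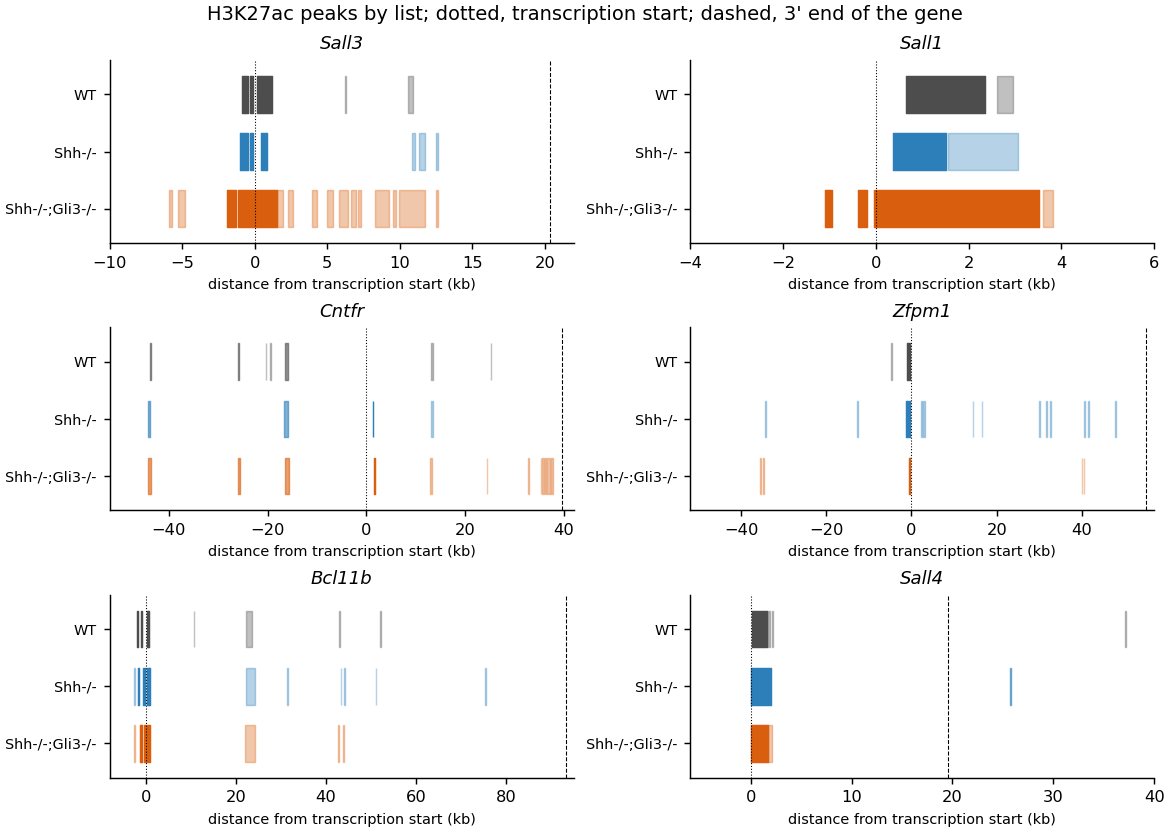
H3K27ac peaks of the 3 lists by distance (kb) from the transcription start, in the direction of transcription, for Sall3, Sall1, Cntfr, Zfpm1, Bcl11b and Sall4. Each box is 1 peak, darkest on the gene's own promoter and lightest away from promoters, and peaks beyond the drawn range are left out. The double mutant row of Sall3 shows boxes spread over the first 12 kb of the gene, and that of Cntfr a cluster near the 3' end of the gene.

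Sall4 coverage was nearly even in the 50 kb window. The gene (chr2:168748332-168767943, minus strand) was covered over 1.90 kb in WT, 2.05 in Shh-/- and 2.0 in Shh-/-;Gli3-/-, with ratios to WT of 1.08 and 1.05. The double mutant log2 ratio of 0.07 became 0.86 with windows of 100 kb, past the limit for larger, and -0.65 when scaled to list totals, past that for smaller. Its promoter peak was 1500, 1950 and 1650 bp wide and stood at score percentiles 94.6, 95.1 and 92.6 of the 3 lists, so that a strong promoter peak was present in each genotype. The widths were at percentiles 85.7, 92.7 and 82.3 among promoters. WT distal peaks at Sall4 numbered 3, of 100 to 150 bp each and FDR 0.162 or above, and only the peak nearest the promoter was overlapped in the mutant lists.

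At Sall1 (chr8:89027235-89044162, minus strand), all coverage of WT and Shh-/- lay in the first 3.1 kb of the gene. It came to 2.05 kb in WT, 2.65 in Shh-/- and 4.1 in Shh-/-;Gli3-/-. The 2 WT peaks (chr8:89041200-89041549 and chr8:89041800-89043499) and the 2 Shh-/- peaks (chr8:89041100-89042599 and chr8:89042650-89043799) covered nearly the same stretch, which a single 3550 bp peak (chr8:89040650-89044199) spanned in the double mutant. The double mutant alone had 2 further peaks of 200 and 150 bp upstream of the start.

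Because the stretch is divided differently in each list, the promoter width of Sall1 was sensitive to the measure. The peaks that touch the promoter were 1700 bp wide in WT, 1150 bp in Shh-/- and 3900 bp in Shh-/-;Gli3-/-, so that WT was 1.48 times Shh-/-, just under the limit. Inside the promoter window itself the order of WT and Shh-/- turned, with 338, 638 and 1388 bp. By both measures the double mutant was the largest. Sall1, Sall3 and Bcl11b were the 3 of 6 genes with a promoter at least 1.5 times as wide in Shh-/-;Gli3-/- as in WT, against 30.6% of all genes, and the same 3 were larger by the bp inside the window, against 29.0%.

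Sall1 also held the only match to the GLI letters in any peak of the 10 windows. The exact 9-letter motif TGGGTGGTC and its reverse complement GACCACCCA occurred in none of the 35 WT, 51 Shh-/- and 59 Shh-/-;Gli3-/- peaks at their full width. The 8-letter core TGGGTGGT, which is the first part of that motif, occurred once on the plus strand at chr8:89043763-89043770, inside the promoter peaks of Shh-/- and Shh-/-;Gli3-/- and beyond the edge of the WT peak. For comparison, in the 250 bp around the strongest position of each WT peak the 9-letter motif was present in 0.243% and the core in 1.24% of all 25092 peaks, while none of the named genes' peaks held either there. RefSeq promoter sequences of 300 bp (GRCm38) were at hand for 7 of the 10 genes, and neither string occurred in them, beside 0.253% and 1.48% of 32851 promoters. These are matches of letters and not measured binding sites. The last 250 bp by coordinate of the Shh-/- promoter peak, which lie in an intron, are shown because they hold the core, in capitals (chr8:89043550-89043799, plus strand, GRCm38).
Sall1 promoter peak: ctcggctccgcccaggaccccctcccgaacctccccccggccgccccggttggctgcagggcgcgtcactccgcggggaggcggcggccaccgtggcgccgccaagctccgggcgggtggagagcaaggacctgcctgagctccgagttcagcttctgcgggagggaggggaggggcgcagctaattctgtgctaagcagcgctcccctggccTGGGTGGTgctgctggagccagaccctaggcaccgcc

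**Figure D4:**
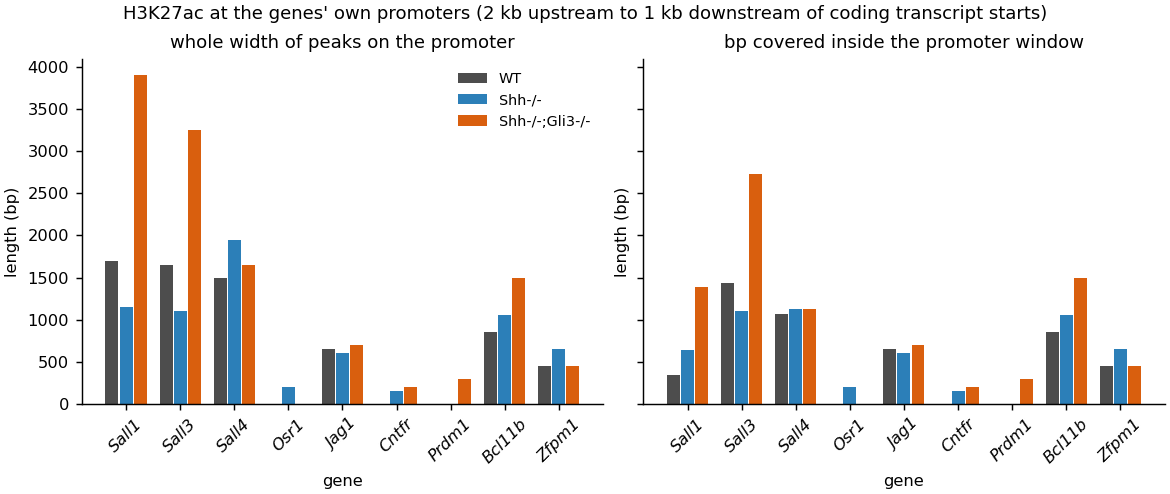
Length (bp) of H3K27ac coverage at the genes' own promoters in the 3 lists (grey WT, blue Shh-/-, orange Shh-/-;Gli3-/-), as the whole width of the peaks that touch the promoter window (left) and as the bp inside that window (right). For Sall1 the Shh-/- bar is below the WT bar on the left (1150 against 1700 bp) and above it on the right (638 against 338 bp), while the double mutant bar is the tallest on both sides.

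Among the other transcription factor genes, Bcl11b (chr12:107910403-108003602, minus strand) was covered over 2.4 kb in WT, 3.9 in Shh-/- and 4.5 in Shh-/-;Gli3-/-. Both mutants were larger than WT, by 1.62 and 1.88 times, or 1.30 and 1.13 times when scaled to list totals. With equal numbers of peaks per list the Shh-/- log2 ratio fell from 0.70 to 0.48, under the limit. The largest part of the difference came from an intronic peak about 23 kb into the gene, which was 1200 bp wide in WT, 2100 bp in Shh-/- and 2250 bp in the double mutant (chr12:107980100-107981299 in WT). It stood at score percentiles 80.0, 89.4 and 91.9 of the 3 lists. Promoter peaks of Bcl11b summed to 850, 1050 and 1500 bp.

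Prdm1 (chr10:44437177-44528501, minus strand) had little coverage, 0.30 kb in WT, 0.35 in Shh-/- and 0.90 in Shh-/-;Gli3-/-. Its double mutant ratio of 3.0 to WT (1.81 when scaled) thus rests on 600 bp, and the call is lost when peaks of a log2 fold of at least 3 alone are counted, where the log2 ratio is 0. A peak of 300 to 350 bp just beyond the 5' end of the annotated span was present in all 3 lists and was the only one in WT and in Shh-/-. In addition, the double mutant had 2 intronic peaks of 150 bp and a 300 bp peak (FDR 0.00846) where neither other list had a peak. The 300 bp peak lay 1.40 kb downstream of the first coding start, past the end of the promoter window of that start. It was counted as a promoter peak through another coding transcript. The shared region, which is intergenic, is shown because it held all WT and Shh-/- coverage of the window. The 250 bp common to the 3 lists are in capitals (chr10:44529550-44529849, plus strand, GRCm38).
Prdm1 upstream peak: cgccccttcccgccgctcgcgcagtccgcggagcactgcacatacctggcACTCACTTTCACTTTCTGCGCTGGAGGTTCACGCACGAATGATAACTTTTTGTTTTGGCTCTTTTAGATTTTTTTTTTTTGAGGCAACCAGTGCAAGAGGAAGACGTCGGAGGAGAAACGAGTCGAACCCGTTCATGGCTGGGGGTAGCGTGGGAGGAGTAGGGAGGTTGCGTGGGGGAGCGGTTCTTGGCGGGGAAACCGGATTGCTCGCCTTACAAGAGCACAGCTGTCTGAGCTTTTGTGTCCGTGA

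Osr1 (chr12:9570116-9581500, plus strand) had no WT peak. In Shh-/- it had a promoter peak of 200 bp (log2 fold over input 2.91, FDR 0.00508), at width percentile 9.58 among promoters of that list, and a 100 bp peak 38.3 kb downstream of the start. In Shh-/-;Gli3-/- it had no promoter peak and a single 250 bp peak 38.5 kb downstream, which began at the base after the end of the Shh-/- peak and shared no base with it. Of the 6008 genes without a WT peak in their window, 19.6% had a peak in Shh-/- and 19.2% in Shh-/-;Gli3-/-. Rprm (chr2:54084093-54085552, minus strand) had no peak within 50 kb in any list, as had 19.6% of all 21938 genes.

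Zfpm1 (chr8:122282141-122337251, plus strand) had the largest ratio of Shh-/- to WT of the 10 genes. It was covered over 1.0 kb in WT by 4 peaks, 3.55 in Shh-/- by 16 peaks and 1.90 in Shh-/-;Gli3-/- by 6 peaks. The Shh-/- value was 3.55 times WT (2.84 times when scaled), at percentile 97.7 of all genes, and was also above the double mutant. Its promoter peaks differed by at most 200 bp, with 450, 650 and 450 bp. Distal peaks numbered 1 in WT, 12 in Shh-/- and 4 in the double mutant and covered 0.1, 2.1 and 0.7 kb, while peaks on the promoters of other genes covered 0.45, 0.8 and 0.75 kb. With windows of 10 kb the log2 ratio of the double mutant over WT fell from 0.93 to 0.24, and Zfpm1 was no longer larger there. All 12 distal Shh-/- peaks overlapped no peak of the other lists, as did 52.9% of all distal Shh-/- peaks. Of the 12, 7 had an FDR below 0.05. Within the gene, peaks covered 1.75 kb in Shh-/- and 0.20 kb in the double mutant, and none was present in WT. The intronic part also belongs to the overlapping annotated gene Gm20388.

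Zfpm1 is also expressed in blood cells, and blood markers had more coverage in both mutant lists than in WT. The 7 blood markers (Gata1, Tal1, Hbb-bt, Hba-a1, Ptprc, Spi1 and Klf1) were covered over 2.9 kb in WT, with 4 of 7 at 0, over 6.75 kb in Shh-/- and over 8.15 kb in Shh-/-;Gli3-/-, with none at 0 in either mutant. Among them, Gata1 was at 0, 0.20 and 0.80 kb. The sum of the 7 was 2.33 times WT in Shh-/- and 2.81 times in the double mutant, or 1.86 and 1.70 times when scaled to list totals. The blood sum was largest in the double mutant, whereas Zfpm1 coverage was largest in Shh-/-. Unscaled, the other lists of cell markers also had more coverage in both mutants, except ectoderm and apical ridge in Shh-/- (6.65 kb in WT, 6.6 in Shh-/-). The part of blood cells in the Zfpm1 coverage was not tested. The strongest Shh-/- peak of the gene with no counterpart in the other lists lay in an intron 2.96 kb downstream of the start and is shown as the example of this set (chr8:122284950-122285249, plus strand, GRCm38).
Zfpm1 intronic peak: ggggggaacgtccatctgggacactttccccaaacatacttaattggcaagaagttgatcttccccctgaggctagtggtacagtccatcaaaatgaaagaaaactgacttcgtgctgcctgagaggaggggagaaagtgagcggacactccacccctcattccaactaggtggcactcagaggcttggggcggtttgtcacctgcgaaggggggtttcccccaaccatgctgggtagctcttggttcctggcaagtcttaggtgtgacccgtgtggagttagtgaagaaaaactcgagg

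The 2 genes of extracellular signalling differed. Jag1 (chr2:137081456-137116644, minus strand) was the member nearest to the order of reduced and back, with 0.80 kb in WT, 0.60 in Shh-/- and 0.95 in Shh-/-;Gli3-/-. The WT to Shh-/- difference of 200 bp amounts to 4 steps of the 50 bp grid on which peaks were called, and the ratio of 0.750 stood at percentile 11.6 of all genes. The promoter peaks of Jag1 hardly differed, with 650, 600 and 700 bp, and stood at score percentiles 91.9, 80.0 and 88.2. Most of the difference lay in 1 intronic peak that was 150 bp wide in WT, had no counterpart in Shh-/- and overlapped a 250 bp peak in the double mutant. It was a weak peak in WT (log2 fold over input 2.46, score percentile 33.4, FDR 0.0791). The double mutant peak stood at score percentile 47.9 of its list (FDR 0.00267). These 2 FDRs are not on the same scale, since a Cntfr peak of log2 fold 2.46 had an FDR of 0.00846 in the double mutant. With windows of 100 kb Jag1 passed the limit for reduced, at a log2 ratio of -0.74, but was not back. Counted over distal peaks alone, 2 of 8 genes, Jag1 and Sall4, were reduced in Shh-/-, against 42.1% of the 8346 genes with a distal WT peak, and 1, Jag1, was also back, against 13.5%. On the same count 6 of 8 were larger in the double mutant, against 38.9%. The Sall4 call rests in part on peak class. A 1950 bp Shh-/- peak covered the WT distal peak nearest the promoter but touched the promoter, and was therefore not counted as distal.

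Cntfr (chr4:41657498-41697089, minus strand) was covered over 2.15 kb in WT, 2.75 in Shh-/- and 5.2 in Shh-/-;Gli3-/-, but much of this belonged to other genes. Its window holds the promoters of other genes, among them Enho and Rpp25l, and peaks on such promoters made up 1.40, 1.95 and 2.25 kb. Its own promoter had no WT peak, and peaks of 150 bp in Shh-/- and 200 bp in the double mutant. Within the gene, coverage was 0.50 kb in WT and in Shh-/- and 2.80 kb in the double mutant. The greater part of that was a cluster of 5 intronic peaks that together covered 1.85 kb over a stretch of 2.55 kb, 35.4 to 37.6 kb from the start (chr4:41659200-41661749). No peak of the WT or Shh-/- list fell there, and all 5 had an FDR of 0.0216 or below. The log2 ratio of double mutant over WT rose from 1.27 to 1.98 when peaks over promoters of other genes were left out. The strongest position of the first peak of the cluster is shown, a stretch without the GLI core (chr4:41659400-41659649, plus strand, GRCm38).
Cntfr intronic peak: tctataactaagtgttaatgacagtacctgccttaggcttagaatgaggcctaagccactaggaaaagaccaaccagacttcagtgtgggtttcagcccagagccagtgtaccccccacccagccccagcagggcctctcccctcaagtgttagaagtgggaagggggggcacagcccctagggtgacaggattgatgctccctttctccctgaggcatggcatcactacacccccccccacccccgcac

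Across the 10 windows, 17 WT peaks were distal. Of these, 11 had no Shh-/- counterpart (64.7%, Wilson 95% interval 41.3 to 82.7%), against 61.0% of all 11665 distal WT peaks. Of the 11, 2 overlapped a double mutant peak (18.2%, interval 5.14 to 47.7%), against 30.4% of the 7117 such peaks in all. These 2 are the Sall3 and Jag1 peaks described above. A further 9 were in neither mutant list, were 100 to 150 bp wide with log2 folds over input of 2.24 to 2.47, and none had an FDR below 0.05. They made up 52.9% of the 17 (interval 31.0 to 73.8%), and 42.4% of all distal WT peaks were likewise in neither mutant list. The 6 WT distal peaks found in all 3 lists were 150 to 1200 bp wide, and 5 of them had an FDR below 0.05. An FDR of 0.05 does not fall at the same score percentile in each list, so such counts of WT and mutant peaks are not comparable. When all lists were restricted to that FDR, the 5 WT distal peaks left were all present in Shh-/-. The matching share of all distal WT peaks at that FDR was not taken, so this count has no background.

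Shares of distal peaks found in 1 list only were also taken for the mutants. In Shh-/-;Gli3-/-, 29 of 38 distal peaks overlapped neither other list (76.3%, interval 60.8 to 87.0%), against 64.5% of all its distal peaks, and in Shh-/- 20 of 28 did so (71.4%, interval 52.9 to 84.7%), against 52.9%. These intervals cover counting error over peaks only. The double mutant set was divided unevenly, with 11 peaks at Sall3, 8 at Cntfr, 4 at Zfpm1, 2 each at Prdm1 and Bcl11b, and 1 each at Sall1 and Osr1. In Shh-/-, 12 of the 20 were at Zfpm1 and 5 at Bcl11b.

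The other genes of the pathway were counted in the same way. Of 20 genes of HH signalling and posterior limb patterning, 19 had a WT peak, 4 were reduced in Shh-/- (Ptch1, Ccnd1, Cdk6 and Hand2) and the same 4 were back, where the background shares were 9.11% and 4.19%. Ptch1, the SHH receptor and a direct target of the pathway, was covered over 5.6 kb in WT, 1.75 in Shh-/- and 9.1 in Shh-/-;Gli3-/-. For this experiment, the study reports much lower H3K27ac in the double mutant than in WT at GLI3-bound regions associated with Ptch1. That was enrichment at single regions, and covered length over the whole window does not measure it. In the list of 20 genes, 3 of 19 were larger in Shh-/- (background 25.7%) and 15 of 19 in the double mutant (34.1%). Their median ratios to WT were 0.816 in Shh-/- and 1.69 in Shh-/-;Gli3-/-. Scaled to list totals, 10 of the 19 were reduced (background 15.8%) and 5 were reduced and back (2.63%). By the same scaling, 3 were larger in Shh-/- (12.4%) and 4 were larger in the double mutant (8.88%). The 4 Hoxd genes in this list share most of their window and are not independent. Of 8 genes of anterior limb mesenchyme 6 had a WT peak, and 0 were reduced (background 9.11%). In Shh-/- 3 were larger (25.7%) and in the double mutant 2 (34.1%), with median ratios of 1.64 and 1.06. When scaled, 2 of the 6 anterior genes were larger in Shh-/- (12.4%). In the double mutant 1 was larger (8.88%) and 3 were smaller (28.8%). All 8 control genes of general cell function (Actb, Gapdh, Tbp, Hprt, Ppia, Eef1a1, Ywhaz and Pgk1) had WT peaks. Of these, 0 were reduced (9.11%), 0 were larger in Shh-/- (25.7%) and 4 were larger in the double mutant (34.1%), with median ratios of 1.21 and 1.52. When scaled, 1 control gene was larger (8.88%) and 1 smaller (28.8%) in the double mutant. The medians of the 8 named genes with a WT peak, 1.22 and 1.95, lay beside those of the control genes in Shh-/- and above them in the double mutant, without a test.

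The genes outside the set with the largest loss that was reduced and back were Gse1, Hist1h4c, Ptch1, Msi2 and Ccnd1. Gse1 was covered over 13.9, 9.05 and 32.5 kb, Hist1h4c, in a histone gene cluster, over 12.755, 8.405 and 12.755 kb, Msi2 over 6.5, 3.65 and 14.35 kb, and Ccnd1, the cyclin D1 gene, over 4.35, 1.6 and 5.75 kb in WT, Shh-/- and Shh-/-;Gli3-/-. They were picked for that difference. Of the 10 named genes, Jag1 and Sall3 were below WT in Shh-/-, by 0.2 and 0.1 kb.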

How the data were processed

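MicroChIP-seq for H3K27ac was made in forelimb buds of 3 genotypes. The authors called peaks with CisGenome on mm10 and deposited 1 list per genotype. The aligner named in the submitters' processing notes is Bowtie2 2.2.5. Each list is attached to replicate 1. The labels do not say whether replicates were pooled, and the study describes called peaks from both replicates of a genotype. Library depths were not used here, so the precision that depth gives is unknown. The deposited score by which peaks are ordered is the largest statistic in a peak. The deposited fold is the largest log2 ratio of immunoprecipitated over input reads in a peak, against that genotype's own input, and folds of different lists were not compared. The authors also deposited the −log10 of the smallest p-value, which was not used, and a false discovery rate (FDR, a q-value) that reaches 0.350, 0.186 and 0.109 in WT, Shh-/- and Shh-/-;Gli3-/-. An FDR limit is not equally strict in the 3 lists. Peaks with an FDR of 0.0437 in WT, 0.0441 in Shh-/- and 0.0447 in Shh-/-;Gli3-/- stood at score percentiles 39.9, 31.6 and 17.6. Peak widths, deposited in bp, come in steps of 50 bp. The lists do not say whether positions count from 0 or 1, and they were read as closed intervals counted from 1.

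From the 25096, 32085 and 34641 peaks, those on assembled chromosomes (25092, 32077 and 34635) were set against GENCODE M21 (basic set, GRCm38, which is mm10) with Python 3.11.15, numpy 2.4.6, pandas 2.3.3 and scipy 1.17.1. Coverage was clipped to the gene span plus 50 kb on each side. A peak was a promoter peak if it overlapped, by at least 1 bp, a window from 2 kb before to 1 kb after the start of a protein-coding transcript, and distal otherwise. Score and width percentiles are within a list. No test was made, because each genotype has 1 list. The WT covered length and the call of reduced and back were checked on simulated peaks, 1 per gene, in windows that did not overlap. The other calls, promoter widths and distal overlaps were not checked in that way. All 10 genes are named, together with the 5 other genes that were reduced and back with the largest WT to Shh-/- difference (of genes with overlapping windows, only the first). Sequences were read from GRCm38 (RefSeq). The rule for them was distal WT peaks without a Shh-/- peak and with a Shh-/-;Gli3-/- peak, and the sequences it gave are not reported here. The Sall1, Prdm1, Zfpm1 and Cntfr regions were chosen after their values were seen. The genes and lists were chosen with earlier results of these data known.

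Lists of markers of other cells that a limb bud holds were summed in WT, Shh-/- and Shh-/-;Gli3-/-. Forelimb mesenchyme (7 genes) was covered over 66.65, 88.3 and 106.186 kb, ectoderm and apical ridge (6 genes) over 6.65, 6.6 and 8.2 kb, muscle precursors (3 genes) over 0.3, 1.4 and 2.2 kb, endothelium (5 genes) over 7.45, 9.35 and 12.15 kb, and hindlimb (2 genes, all of it at Tbx4) over 2.4, 4 and 5.5 kb. Their part in the coverage of the named genes was not tested.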

Additional observations from a re-analysis of the deposited data

How the results depend on the processing

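No paired analysis was possible because the lists hold no values per replicate, with 1 list for a genotype, and leaving out a replicate could not be run for the same reason. Of the 8 genes with a WT peak, the count reduced in Shh-/- was 0 as reported, 1 with windows of 100 kb, 1 with coverage as a share of the list, 2 with distal peaks only and 2 when any difference counted. The count reduced and back was 0 as reported, 1 with distal peaks only and 2 when any difference counted. The count larger in Shh-/-;Gli3-/- was 6 as reported, 2 with coverage as a share of the list, and 5 to 8 under the remaining settings. Shares over all genes for these counts were taken as reported, with coverage as a share of the list and with distal peaks only. Under the other settings no such share was taken, so those counts have no background to be read against. By promoter width, the count reduced and back was 1 as reported, 0 at FDR below 0.05 and 0 with the bp within the promoter window. The share of distal WT peaks without a Shh-/- peak, 64.7%, was 0% at FDR below 0.05, at FDR below 0.01 and at a log2 fold of at least 3, where 5 WT peaks were left, and the share of these found in the double mutant then had no value. With reciprocal 50% overlap that second share went from 18.2% to 0%. The matching shares of all distal WT peaks under these settings were not taken. The log2 ratio of Sall1 in Shh-/-;Gli3-/- over WT turned from 1.0 to -0.81 with distal peaks only, since its widest double mutant peak touches the promoter. Of 142 log2 ratios of single genes under alternatives, 120 changed by less than a factor of 1.5, 21 by more, and 1 that differed by 1.5 times or more turned in sign (smaller ratios were not followed for sign). Left out of the 142 are Sall4 and Jag1 in Shh-/- over WT with distal peaks only. Their Shh-/- distal coverage was 0, so that no log2 ratio could be taken. Of 90 promoter widths, 85 changed by less than that factor and 5 by more. Leaving out peaks over promoters of other genes, and counting bp within the promoter window, were chosen after seeing the data. Differences of a few 50 bp steps, as at Jag1, are at the limit of what these lists resolve.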
